A study of Mus musculus with 6 samples.

Results

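H3K56ac peaks that lay beside promoters, with their midpoint more than 1 kb and at most 3 kb from a transcription start site (TSS), were drawn from a merged peak set of mouse embryonic stem cells (mESCs) of the line V6.5, which grow on feeder cells. They were selected on distance and width. A member was wider than 320 bp and narrower than 3000 bp, and the TSS was the nearest start of any transcript of a protein-coding gene in GENCODE M21 on mm10. There were 672 such peaks among 11106, or 6.05% (5.62 to 6.51, a Wilson 95% interval, as are all ranges given after a share here). A further 88 peaks at this distance were narrower and 95 were wider. Members were called upstream or downstream of the TSS in the direction of transcription, and each was also sorted by whether any TSS of the same gene had a promoter peak, a peak of any width with its midpoint within 1 kb.

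The libraries came from cells infected with lentivirus for a scrambled shRNA (Scramble) or for an shRNA against Sirt6 (Sirt6KD), with 2 H3K56ac ChIP libraries and 1 input library in each group. Both groups thus carry an integrated virus, and both were grown with feeders, whose chromatin cannot be told apart from that of the mESCs in a list of positions. The deposited file gives each peak as a start and an end and does not say which library it came from or how strong it was. No level per sample, read depth or difference between Scramble and Sirt6KD could therefore be given for any member, and the intervals cover counting error only.

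Lysine 56 lies in the core of histone H3, where the DNA enters and leaves the nucleosome. Its acetylation is written by the acetyltransferases CBP and p300, with help from the chaperone ASF1, and SIRT6 is one of the deacetylases that remove it. Active promoters often lie in CpG islands, stretches of DNA rich in C, G and the CpG pair, with a nucleosome-depleted region at the TSS and modified nucleosomes on its flanks.

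A small set of members was placed on both sides of 1 TSS, and the reference sequence shows what lay between the peaks. Of the 12 such genes examined (not Mex3c), 8 had more CpG pairs in the 100 bases before the TSS, which no peak covered, than in the centre of either peak, and 4 did not. Tob1, Vapa and Yy1 are shown for the first kind and Parp16 for the other. Tob1 encodes an antiproliferative protein, Vapa a membrane protein of the endoplasmic reticulum, Yy1 a zinc-finger transcription factor and Parp16 an ADP-ribosyltransferase. The sequences are 100 bases from RefSeq's GRCm38.p6, the assembly behind mm10, on the strand of the gene and written 5′ to 3′, with each CG in capitals.
Tob1, before the TSS, chr11:94211354-94211453, + strand: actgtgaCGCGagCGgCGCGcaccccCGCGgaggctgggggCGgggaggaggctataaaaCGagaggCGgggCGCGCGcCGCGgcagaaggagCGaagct
Tob1, upstream peak centre, chr11:94210357-94210456, + strand: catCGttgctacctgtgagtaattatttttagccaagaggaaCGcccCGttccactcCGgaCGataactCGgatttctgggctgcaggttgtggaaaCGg
Tob1, downstream peak centre, chr11:94212456-94212555, + strand: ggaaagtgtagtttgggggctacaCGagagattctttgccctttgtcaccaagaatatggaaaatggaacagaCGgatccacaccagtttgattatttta
Vapa, before the TSS, chr17:65613556-65613655, - strand: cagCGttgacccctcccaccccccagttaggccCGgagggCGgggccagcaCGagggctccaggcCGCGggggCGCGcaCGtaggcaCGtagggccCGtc
Vapa, upstream peak centre, chr17:65614596-65614695, - strand: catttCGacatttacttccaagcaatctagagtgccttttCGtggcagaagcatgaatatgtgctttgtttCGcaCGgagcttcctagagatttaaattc
Vapa, downstream peak centre, chr17:65612396-65612495, - strand: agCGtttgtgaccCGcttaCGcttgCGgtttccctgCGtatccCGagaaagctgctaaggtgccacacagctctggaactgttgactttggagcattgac
Yy1, before the TSS, chr12:108792873-108792972, + strand: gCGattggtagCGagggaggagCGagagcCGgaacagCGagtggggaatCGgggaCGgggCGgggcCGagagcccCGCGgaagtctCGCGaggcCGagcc
Yy1, upstream peak centre, chr12:108791725-108791824, + strand: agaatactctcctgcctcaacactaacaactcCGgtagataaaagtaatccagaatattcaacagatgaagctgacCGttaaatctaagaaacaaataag
Yy1, downstream peak centre, chr12:108794922-108795021, + strand: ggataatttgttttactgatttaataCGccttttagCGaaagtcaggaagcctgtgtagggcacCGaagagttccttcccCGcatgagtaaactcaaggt
Parp16, before the TSS, chr9:65195253-65195352, + strand: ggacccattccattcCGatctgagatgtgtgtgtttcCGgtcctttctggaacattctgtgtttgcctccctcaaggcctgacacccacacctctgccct
Parp16, upstream peak centre, chr9:65193391-65193490, + strand: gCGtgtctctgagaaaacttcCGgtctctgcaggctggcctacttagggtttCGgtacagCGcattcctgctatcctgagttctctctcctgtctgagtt
Parp16, downstream peak centre, chr9:65196898-65196997, + strand: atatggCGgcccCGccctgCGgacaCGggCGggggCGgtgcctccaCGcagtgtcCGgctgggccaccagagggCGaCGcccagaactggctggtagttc

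The stretches before the TSS of Tob1, Vapa and Yy1 held 16, 11 and 14 CG pairs, and the peak centres held 2 to 7. Parp16 had 2 before the TSS and 10 in the centre of the downstream peak. Nanos3, Sfn and Zfhx2 were the other genes without more pairs before the TSS. None of these windows overlapped an annotated untranslated region.

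Single members at genes of stem cell identity and at Utrn, the dystrophin homologue utrophin that the study followed, show how varied the centres of the peaks were. They are the central 120 bases of the peak, again with CG in capitals. Prdm14, a repressor that guards naive pluripotency, had a member upstream of its only TSS with 10 CG pairs in this window. The centre of the member at Utf1, a chromatin factor of undifferentiated cells, held 4. The middle of 3 members at Tet1, an enzyme that oxidises methylated cytosine, held none. The Utrn member held none either, and all 120 of its bases were masked as a repeat.
Prdm14, chr1:13128493-13128612, + strand: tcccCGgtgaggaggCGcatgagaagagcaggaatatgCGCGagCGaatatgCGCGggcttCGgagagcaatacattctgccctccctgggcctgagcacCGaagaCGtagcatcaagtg
Utf1, chr7:139945142-139945261, + strand: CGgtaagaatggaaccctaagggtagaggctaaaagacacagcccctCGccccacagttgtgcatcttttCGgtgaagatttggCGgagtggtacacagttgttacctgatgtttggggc
Tet1, chr10:62891144-62891263, + strand: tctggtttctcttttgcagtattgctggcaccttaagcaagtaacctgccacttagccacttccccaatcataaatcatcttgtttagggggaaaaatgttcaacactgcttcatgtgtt
Utrn, chr10:12547762-12547881, + strand: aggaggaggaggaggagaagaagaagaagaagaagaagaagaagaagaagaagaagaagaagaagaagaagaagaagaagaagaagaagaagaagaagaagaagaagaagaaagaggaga

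Members lay mostly downstream of the TSS. There were 427 downstream (63.5%, 59.8 to 67.1) and 245 upstream (36.5%, 32.9 to 40.2). Promoter peaks of the same widths shared this skew, with 32.5% upstream, while peaks over 3 kb from every TSS had 51.9% upstream. Because side, distance and width chose or divided the members, these values are descriptions and carry no test. The median distance was 1450 bp, with a range of 1001 to 2968 bp. The 500 bp nearest to the 1 kb limit held 242 of the downstream members and 106 of the upstream members. The next 500 bp held 86 and 53, and the range from 2.5 to 3 kb held 53 and 43.

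Set against the length of reference at each distance, members were densest at the inner edge of the zone. Peaks of these widths occurred at 14.7 per Mb from 1 to 1.25 kb downstream and at 6.87 per Mb from 1 to 1.25 kb upstream. From 2 to 3 kb the bins of 250 bp held between 2.32 and 3.61 per Mb downstream and between 2.26 and 2.76 upstream. From 3 to 5 kb, outside the zone, the densities were 2.59 per Mb downstream and 3.0 upstream, and all such peaks over the whole reference came to 3.53 per Mb. Within 1 kb of a TSS the density was 63.0 per Mb. The 3.53 per Mb included these promoter peaks, 6166 of 9350, and is not a background for the zone. The outer kilobase of the zone was thus at about the density beyond it.

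**Figure D1:**
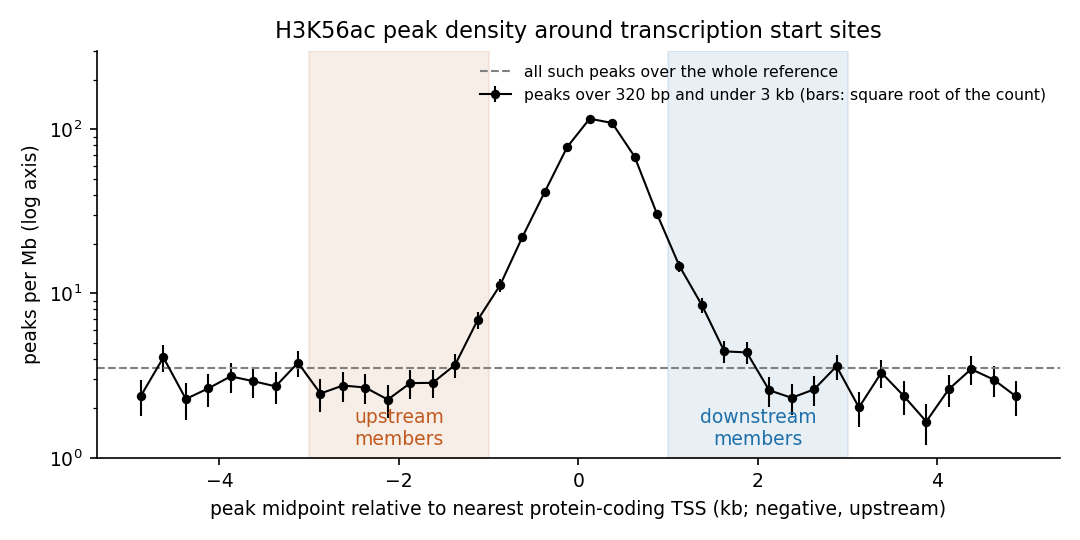
Density of H3K56ac peaks wider than 320 bp and narrower than 3000 bp (peaks per Mb of reference, log axis) against the signed distance of the peak midpoint from the nearest protein-coding TSS in kb, in bins of 250 bp, with bars of the square root of the count and shading over the zones of the members. Density falls from 14.7 per Mb just outside 1 kb downstream, and from 6.87 upstream, to between 2.26 and 3.61 at 2 to 3 kb. The dashed level of 3.53 per Mb is for all 9350 such peaks, and 6166 of them lie within 1 kb of a TSS.

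The members just inside the 1 kb limit were at Sbf2 and Tmem115, each 1001 bp downstream, and at Cramp1l, 1002 bp downstream. The peaks just outside it, which counted as promoter peaks, were at Socs5 and Cnot6l, each 1000 bp away, and at Mtap, 999 bp away. At the 3 kb limit the last members were at Ppp2r5c (2968 bp), Acsl6 (2965 bp) and Pxn (2965 bp), and the nearest peaks beyond it were at Slc22a7 (3006 bp), Creb1 (3012 bp) and Kcnn1 (3013 bp). By width, the narrowest members were at Zbtb2, at the lower limit itself, Trib3 (326 bp) and Bcl9l (329 bp), and those left out as too narrow by the least were at Trpv2 (319 bp), Tnfrsf19 (318 bp) and Slc2a7 (315 bp). The widest were at Erf (2996 bp), Ctbp2 (2943 bp) and Wdr76 (2923 bp), and those left out as too wide by the least were at Ubald2 (3050 bp), Mkrn1 (3103 bp) and Sertad1 (3115 bp). Neighbours across the 1 kb limit thus differed by a single base.

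Many members reached close to the TSS although their midpoint did not. The median width was 792 bp, and the median distance from the near edge to the TSS was 1006 bp. In 334 of 672 members (49.7%, 45.9 to 53.5) the near edge was within 1 kb of the TSS, and in 102 (15.2%, 12.7 to 18.1) it was within 500 bp. A TSS lay inside 16 members (2.38%, 1.47 to 3.83), 13 of them downstream members. These members were over 2 kb wide, and included peaks that ran from the TSS into the body of Sparc, a matrix glycoprotein, and of Rab5c, a regulator of early endosomes.

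By annotation, most downstream members lay in first introns. The share among all positions this far downstream, or among other peaks, was not computed. Whether members lay there more often than such positions was therefore not tested. The midpoint lay in the first intron of a transcript from that TSS in 287 of 427 downstream members (67.2%, 62.6 to 71.5), in the first exon in 30, in a later exon or intron in 81 and beyond the end of such transcripts in 29. Coding exons of any protein-coding gene held 36 of the midpoints. Upstream members were intergenic in 142 of 245 cases (58.0%, 51.7 to 64). Another 87 upstream members (35.5%, 29.8 to 41.7) lay inside the body of the gene itself, upstream of an internal start, and 16 lay in another gene. Genes with a member had a median of 5 annotated TSS positions, against 3 over all protein-coding genes. The nearest TSS was the 5′ end of the gene for 158 of 245 upstream members (64.5%, 58.3 to 70.2) and for 109 of 427 downstream members (25.5%, 21.6 to 29.9). Of all members, 485 (72.2%, 68.7 to 75.4) were within 3 kb of a TSS of a principal isoform, and 108 (16.1%, 13.5 to 19.0) were more than 10 kb from one.

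A promoter peak of the same gene accompanied 300 members (44.6%, 40.9 to 48.4) and was missing for 372. It was present for 129 of 245 upstream members (52.7%, 46.4 to 58.8) and for 171 of 427 downstream members (40.05%, 35.5 to 44.8). The share rose with distance on both sides. Downstream it was 33.5% (27.8 to 39.6) at 1 to 1.5 kb and 66.0% (52.6 to 77.3) at 2.5 to 3 kb, and upstream it was 41.5% (32.6 to 51.0) and 65.1% (50.2 to 77.6). No 2 peaks of the set were less than 1000 bp apart, so a member near the 1 kb limit had little room for a separate promoter peak at its own TSS. The methods speak of merging peaks that overlap, and how this floor arose was not tested. Where nearer peaks were joined, the widths, the gaps and the lack of a promoter peak describe joined regions. Of the 300, the promoter peak was at the same TSS in 133 (44.3%, 38.8 to 50.0) and at another TSS of the gene alone in 167. In those 133 pairs the gap was 1001 to 3063 bp with a median of 1331 bp, and 93 gaps were under 1500 bp. The promoter peak was the wider of the pair in 87 cases, with a median of 920 bp against 681 bp.

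The 372 members without a promoter peak were of more than 1 kind. In 221 (59.4%, 54.4 to 64.3) the member's own near edge reached to within 1 kb of the TSS. In 38 (10.2%, 7.53 to 13.7) a base of another peak did so, and in 142 (38.2%, 33.4 to 43.2) no base of any peak lay within 1 kb of the TSS. Another peak covered the TSS itself in 3 of the 372 (0.807%, 0.275 to 2.34). The 372 were chosen for having no peak midpoint within 1 kb of a TSS of the gene. Only a wide peak centred farther away could thus cover the TSS, so the choice itself limits this count. Over all 672 members another peak covered the TSS in 64 (9.52%).

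**Figure D2:**
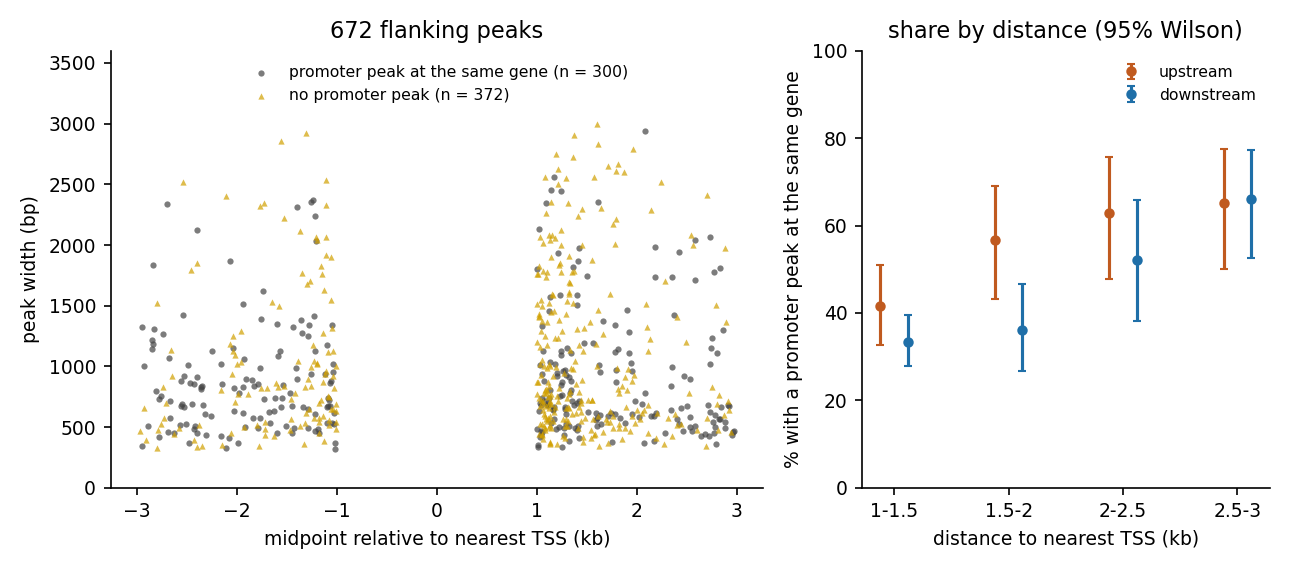
Left, width in bp of each of the 672 members against the signed distance of its midpoint from the nearest TSS in kb (negative, upstream), with circles for 300 members whose gene also had a promoter peak and triangles for 372 without. Right, the share with such a promoter peak in bins of 500 bp of distance, with Wilson 95% intervals, which rises from 33.5% to 66.0% downstream and from 41.5% to 65.1% upstream.

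For 162 members (24.1%, 21 to 27.5) the nearest TSS lay in a gap of at most 3 kb between the member and another peak. This count was chosen after the genes with members on both sides had been seen, and it has no test. The peak across the gap was a promoter peak in 116 cases, another peak 1 to 3 kb from its TSS in 45 and a distal peak in 1. There were 143 such gaps, with a median length of 1362 bp. They were rich in G and C. The median GC content over the whole gap was 68.0% (quartiles 57.4% and 73.1%), while the central 400 bp of the members beside them had a median of 47.5% (43.1% and 51.7%). Gaps of at most 3 kb with no TSS, of which there were 552 in the set, had a median of 45.6%. The 143 gaps held a TSS by choice, so this contrast need not be particular to them. Of all 888 gaps of this size 336 held a TSS, and the rest of these were not compared. In the 400 bp around the TSS the GC content was 71.9% by median for these 162 members and 64.2% for the TSS nearest to promoter peaks. A CpG-rich promoter, with a ratio of observed to expected CpG over 0.6 within 500 bp of the TSS, was found for 132 of the 162 (81.5%, 74.8 to 86.7) and for 251 of the other 510 members (49.2%, 44.9 to 53.5). Base composition can change how well DNA is amplified and sequenced, and its part in these gaps was not tested.

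At 13 genes the members stood on both sides of 1 TSS. These were Ccdc6, Cdyl, Klf16, Kpnb1, Mex3c, Nanos3, Parp16, Sap30, Sfn, Tob1, Vapa, Yy1 and Zfhx2. No peak lay in any of the 13 gaps, which were 1096 to 3021 bp long, and Parp16 was the only 1 of these genes with a promoter peak, at another TSS. A separate peak could not have stood in a gap of up to 2000 bp, since no 2 peaks were less than 1000 bp apart, and 7 of the 13 gaps were of that size. In those 7 the GC content of the gap was at least 60%, as it was in 9 of all 13. The TSS was that of a principal isoform in 11 of the 13, and the upstream peak was the wider of the 2 in 10.

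Kpnb1, which encodes importin beta 1, had peaks of 921 bp upstream and 659 bp downstream, 1042 and 1124 bp from its TSS, and a gap of 1376 bp with 72.4% GC. Its peak centres had 44.8% and 44.5% GC. At Klf16, a zinc-finger repressor, the downstream peak was 2654 bp wide and ran through the first intron, and the gap of 1096 bp had 73.4% GC against 57.8% and 55% in the peak centres. At Cdyl, a corepressor that reads methylated histone, the gap of 1369 bp had 76.0% GC, and the peak centres had 42.5% and 44.5%. At Sap30, a subunit of the SIN3 deacetylase complex, the gap of 1259 bp had 63.9% GC against 43.8% and 39.5%. Ccdc6 (62.7%), Mex3c (74.6%) and the 3 genes shown above, Tob1 (73.7%), Vapa (75.8%) and Yy1 (74.6%), also had gaps above both of their peak centres. Sfn, the 14-3-3 sigma protein, was the remaining gene of this kind with 57.4% against 51.5% and 53.5%. The gap was not above both centres at Nanos3 (54.0%), Parp16 (49.2%) and Zfhx2 (49.3%). The gaps of Nanos3 and Zfhx2 were the longest, at 3021 and 2906 bp, and their TSS were not of a principal isoform.

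**Figure D3:**
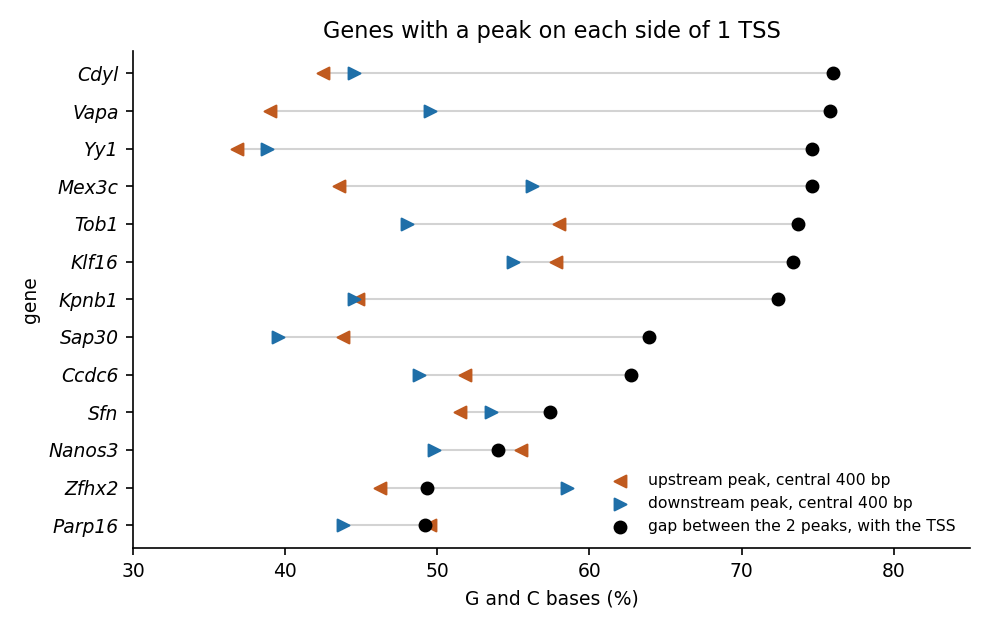
GC content in percent at the 13 genes with members on both sides of 1 TSS, with triangles for the central 400 bp of the upstream and of the downstream peak and a circle for the whole gap between them. The circle lies to the right of both triangles in 10 genes, from Sfn (57.4%) to Cdyl (76.0%), and not at Nanos3, Parp16 and Zfhx2.

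Only 3 genes had 3 members each. At Usp7, a ubiquitin protease, 2 of them stood on either side of a gap of 1292 bp that held internal starts, and the other lay in a first intron 1029 bp downstream of the 5′ end of the gene. At Actn4, an actin crosslinker, 1 member lay upstream of the gene, 1 in a first intron and 1 upstream of an internal start. All 3 members of Tet1 were downstream of internal starts, 1191, 1782 and 1780 bp from them, in the first exon of such a transcript, which is coding, and in 2 first introns. They were 11658 to 30173 bp from the 5′ end of the gene. For the Tet1 member at 1780 bp the nearest start was that of a principal isoform. For the member at 1782 bp the nearest start was covered by a promoter peak of 1297 bp. In all, 40 genes had at least 2 members and the 672 members belonged to 629 genes.

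The sequence at the centre of the members was unlike that of promoter peaks. CpG-rich centres, with at least 50% GC and a CpG ratio over 0.6 in the central 400 bp, made up 10.4% of members (8.33 to 12.96) and 46.8% of the 6167 promoter peaks of the same widths (45.6 to 48.0). The odds ratio was 0.132 (0.101 to 0.171), with an adjusted p of 1.18e-83. Distance from the TSS set both classes, and active promoters often lie in CpG islands, so the rule itself bears on this difference. How much of it the rule sets was not tested. All p-values here are from two-sided Fisher's exact tests on counts of peaks, Benjamini-Hochberg adjusted over 13 tests, and they treat peaks as independent, which neighbours are not. Of the 2511 distal peaks of these widths, those over 3 kb from every TSS, 6.37% (5.48 to 7.40) had such centres. The members' share was larger by an odds ratio of 1.71 (1.25 to 2.31, exact adjusted p = 0.00179), but not for members at 1.5 to 3 kb (1.34, 0.839 to 2.06, exact adjusted p = 0.412) or by the nearest edge (1.28, 0.835 to 1.90, exact adjusted p = 0.469). The median GC content was 49.0% for members, 55.8% for promoter peaks and 49.3% for distal peaks, and the median CpG ratios were 0.338, 0.625 and 0.281. Upstream and downstream members had CpG-rich centres in 11.02% and 10.07% of cases, and the test did not separate them (odds ratio 1.11, 0.638 to 1.89, exact adjusted p = 0.700).

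Centres in which at least 50% of the bases were masked as repeats made up 4.32% of members (29 of 672) and 0.730% of promoter peaks (45 of 6167). The odds ratio was 6.13 (3.68 to 10.1, exact adjusted p = 9.45e-11). Distance from the TSS set both classes here as well, so the rule itself bears on this difference. The size of its part was not tested. Distal peaks had such repeat-rich centres more often, 7.17% (odds ratio 0.584, 0.377 to 0.878, exact adjusted p = 0.0180). This second call was lost in 3 of 10 alternatives. The odds ratio was 0.842 when any masked base counted (exact adjusted p = 0.147), 0.769 by the nearest edge (exact adjusted p = 0.469) and 0.807 at 1.5 to 3 kb (exact adjusted p = 0.704). By side, 19 of 245 upstream members (7.8%, 5.02 to 11.8) and 10 of 427 downstream members (2.34%, 1.28 to 4.26) had repeat-rich centres. The upstream share was thus near that of distal peaks, and the difference between the sides was not tested. The Utrn member, chr10:12547155-12548489, was 1 of the 29. It was 1335 bp wide and lay 1057 bp downstream of the start of a short Utrn transcript, in its first intron and 321543 bp from the 5′ end of the gene. Of its central 400 bp, 57.3% was masked, as an interrupted run of aag, and Utrn had a promoter peak at another TSS. The highest values were at Kank3 (93.5%), Fancm (86.0%) and Fam169a (82.8%), each with the member upstream. The authors kept reads with 1 location in the genome, and how much sequence of this kind such reads can reach was not tested.

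The promoter next to a member was CpG-rich in 233 of 372 cases without a promoter peak (62.6%) and in 150 of 300 with one (50.0%). The odds ratio was 0.597 (0.433 to 0.822, exact adjusted p = 0.00337). For 167 of the 300 the promoter peak was at another TSS of the gene alone. The promoter measured for them was the one nearest to the member, not the one with the peak. The nearest TSS was principal for 35.7% of members with a promoter peak of the gene and for 51.3% of those without. The call was not kept in 5 of 9 alternatives. With GENCODE basic transcripts the odds ratio was 0.894 (exact adjusted p = 0.539), at 1.5 to 3 kb it was 0.910 (exact adjusted p = 0.842), at 1 to 5 kb it was 0.809 (exact adjusted p = 0.164), and by the nearest peak edge it turned to 1.21 (exact adjusted p = 0.481).

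**Figure D4:**
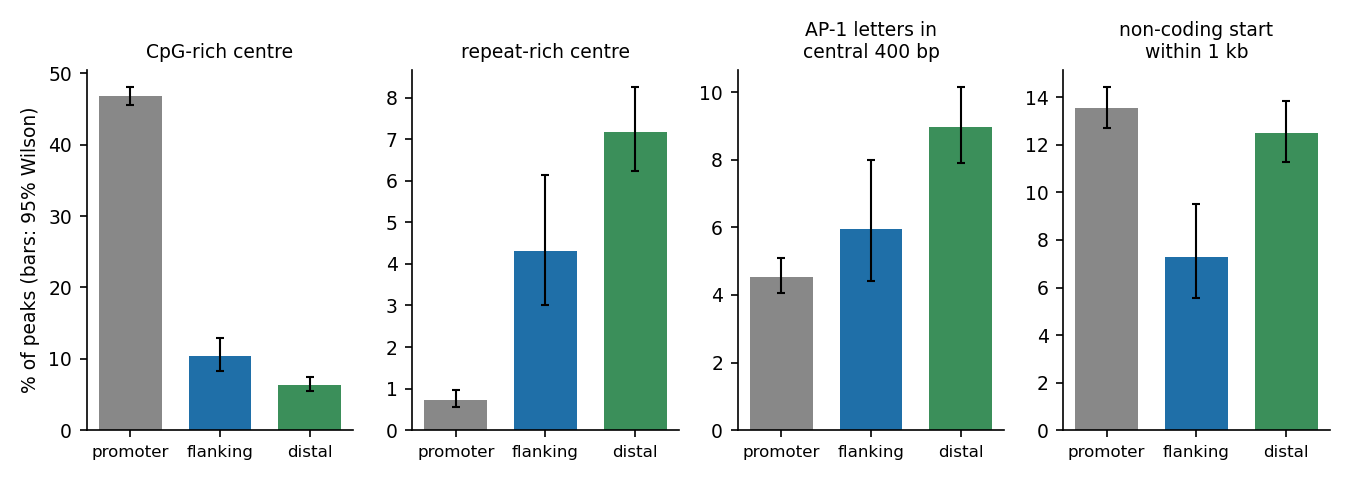
Share of peaks in percent, with Wilson 95% intervals, for promoter peaks (n = 6167), members (flanking, n = 672) and distal peaks (n = 2511) with a CpG-rich centre, a repeat-rich centre, the AP-1 letters in the central 400 bp or the start of a non-coding gene within 1 kb. Members stand far below promoter peaks in CpG-rich centres (10.4% against 46.8%) and above them in repeat-rich centres (4.32% against 0.730%). Distance from a protein-coding TSS set the classes.

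Starts of genes outside the protein-coding class lay within 1 kb of the midpoint in 49 members (7.29%), in 13.5% of promoter peaks and in 12.5% of distal peaks. The odds ratio against distal peaks was 0.550 (0.394 to 0.757, exact adjusted p = 0.000409), and with GENCODE basic transcripts it was 0.751 (exact adjusted p = 0.0897). Only protein-coding TSS set the classes, so a peak at a non-coding start over 3 kb from all of these counted as distal. The rule thus bears on this difference, and how much was not tested. The contrast with promoter peaks was not tested. Upstream members (8.16%) and downstream members (6.79%) were not separated (odds ratio 1.22, 0.638 to 2.29, exact adjusted p = 0.637). The non-coding gene was on the strand opposite to that of the nearest protein-coding gene in 42 of the 49, and 17 of the 49 were annotated as antisense. The smallest distances, which are named because of their values, were 4 bp for Gm29443 in Arhgap35, 8 bp for Nespas upstream of a Gnas start and 9 bp for Tspan32os in Tspan32. Nespas is the antisense transcript of the imprinted Gnas cluster. The member there was 1793 bp wide and 2462 bp upstream of the nearest Gnas TSS.

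Motif letters were rare in members. The AP-1 motif TGACTCA or TGAGTCA, bound by JUN and FOS dimers and read on both strands, occurred in the central 400 bp of 40 members (5.95%, 4.40 to 8.0). It occurred in 4.54% of promoter peaks and in 8.96% of distal peaks. All windows of this length at 93459 protein-coding TSS positions had it in 5.33% of cases. Members did not pass the test against promoter peaks (odds ratio 1.33, 0.921 to 1.88, exact adjusted p = 0.147) and passed it against distal peaks (0.643, 0.442 to 0.915, exact adjusted p = 0.0218). The call against distal peaks was lost in 7 of 11 alternatives, by the nearest edge, with either other distance range, with either other width range and in both other windows. The central 1000 bp reversed which test passed, with odds ratios of 1.73 (exact adjusted p = 6.66e-06) and 0.864 (exact adjusted p = 0.246). The octamer ATTTGCAT, bound by OCT4, was found in 6 members (0.893%), in 1.15% of promoter peaks and in 2.11% of distal peaks. Neither difference passed the test (exact adjusted p = 0.700 and 0.0589), and with 6 matches the members' share had an interval of 0.410% to 1.93%. All TSS windows had the octamer in 1.52% of cases.

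Examples of the matches nearest to a midpoint, or at a listed gene, are given with the motif in capitals. Ezh2, the methyltransferase of Polycomb complex 2, has its AP-1 letters in the first intron, 100 bp from the midpoint of a member 1184 bp downstream of the TSS. In Ccdc92b the match is at the midpoint itself. In Parp16 the octamer is 55 bp from the midpoint of the downstream member, and in Crlf2 it is 67 bp from it. A match is a description of the letters.
Ezh2, AP-1, chr6:47593703-47593789, + strand: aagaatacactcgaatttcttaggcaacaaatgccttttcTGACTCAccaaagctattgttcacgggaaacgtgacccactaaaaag
Ccdc92b, AP-1, chr11:74621045-74621131, + strand: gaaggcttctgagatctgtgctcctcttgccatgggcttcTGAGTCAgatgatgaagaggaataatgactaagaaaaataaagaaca
Parp16, octamer, chr9:65196849-65196936, + strand: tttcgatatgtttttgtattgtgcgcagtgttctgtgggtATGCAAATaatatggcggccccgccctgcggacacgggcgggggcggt
Crlf2, octamer, chr5:109557813-109557900, + strand: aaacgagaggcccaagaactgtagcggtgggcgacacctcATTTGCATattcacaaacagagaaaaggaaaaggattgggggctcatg

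The letters TCAAGGTCA of ESRRB, an orphan nuclear receptor of naive cells, were found in 12 members (1.79%, 1.02 to 3.10), in 0.778% of promoter peaks, in 1.15% of distal peaks and in 0.593% of all TSS windows. The E-box CACGTG was in 8.63% of members and 9.57% of promoter peaks, the KLF letters GGGTGTGG in 4.17% and 3.76%, the STAT3 letters TTCCNGGAA in 1.49% and 1.56%, and the SOX letters CATTGTT in 4.46% and 3.05%. These 5 were not tested. Distal peaks had the E-box in 8.64%, the KLF letters in 3.78%, the STAT3 letters in 2.11% and the SOX letters in 5.77%. The shares over all TSS windows were 8.23%, 4.22%, 1.41% and 3.89% in the same order.

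Members were counted at genes of 16 lists, with no test. Over all 21938 protein-coding genes, 629 or 2.87% were the nearest gene of a member, and 7429 or 33.9% had a promoter peak. Of the 215 listed genes, 27 (12.6%) had a member and 128 (59.5%) had a promoter peak. Listed genes thus had promoter peaks more often too. Among genes with a promoter peak, 16 of 128 listed genes (12.5%, 7.84 to 19.3) and 279 of all 7429 (3.76%, 3.35 to 4.21) had a member. The 30 members at these 27 genes comprised 21 downstream and 9 upstream. Of genes with a member, 59.3% of the listed and 44.4% of all thus had a promoter peak as well.

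The pluripotency list had members at 4 of 14 genes, Esrrb, Dppa5a, Prdm14 and Utf1, and none of these had a promoter peak, while 6 other genes of the list did. A promoter peak is defined by its midpoint, so its lack does not mean that no peak reached close to the TSS. Prdm14 had a member of 1046 bp, 1390 bp upstream of its single TSS, with its near edge at 867 bp. Utf1 had a member of 2235 bp that began 296 bp after the TSS of this short gene and extended past its end. At Dppa5a, a marker of undifferentiated cells, the member of 1323 bp lay past the gene end, 2099 bp from the TSS, with its near edge at 1438 bp. A gap of 1636 bp, with the TSS in it, separated the member from a distal peak. That peak had a base within 1 kb of the TSS. Esrrb had 2 members far inside the gene, 106961 and 146204 bp from its 5′ end, of 1249 and 714 bp. The TSS of short transcripts nearest to them were covered by wider peaks, of 7226 and 5438 bp, whose midpoints were 3506 and 1534 bp from a TSS.

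Among auxiliary naive factors 4 of 18 genes had a member. Klf5, a zinc-finger activator, had a member of 2055 bp in its first intron whose edge was 159 bp from the TSS, and no promoter peak. Nr5a2 (617 bp wide, 2193 bp downstream) and Sall1 (2069 bp, 2728 bp downstream) also had promoter peaks. In the FGF and ERK list, 4 of 15 genes had a member. Spry2 and Spred1 encode inhibitors of the pathway, with members 1762 and 1435 bp upstream, and at Spry2 a peak of 4120 bp covered the TSS. Etv4, a transcription factor induced by it, had a member of 2236 bp with its edge 97 bp upstream of the TSS. Fgfr1, a receptor, had a narrow member of 414 bp, 1286 bp downstream. The Nodal and BMP list had 3 of 17, the target genes Smad7, Id2 and Id3, all with a promoter peak at the same TSS and members 2570 to 2640 bp from it.

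Chromatin lists gave similar counts. Of 14 remodeler genes, Arid1a, Chd1 and Mbd3 had a member, each in a first intron, 1984, 1360 and 1338 bp downstream. Of 18 Polycomb genes, Ezh2 and Mtf2 had one, and of 9 DNA methylation genes only Tet1 did. Of 14 H3K56 acetylation enzymes and chaperones, Crebbp, which encodes CBP, had a member of 795 bp in its first intron, 1106 bp downstream, and no promoter peak, while 12 genes of this list had promoter peaks. All 7 sirtuin genes had a promoter peak and none had a member. In the AP-1 list, Junb and Jund (2 of 10) had members 2249 and 2700 bp upstream, together with promoter peaks. Glycolysis gave 2 of 18, Gapdh and Slc2a1, and Wnt signalling 1 of 15, the coreceptor Lrp5. The midpoint of the Gapdh member lay in an exon of another gene, Iffo1, and 5732 bp from the 5′ end of Gapdh. The LIF and STAT3 list (10 genes) and the Myc network (10 genes) had none, although 8 and 7 of their genes had promoter peaks. Lineage factors and muscle genes, 14 each, had no member and 1 promoter peak each. A list of 10 to 14 genes at 2.87% would have fewer than 1 gene with a member, so a count of 0 in such a list is at the background.

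**Figure D5:**
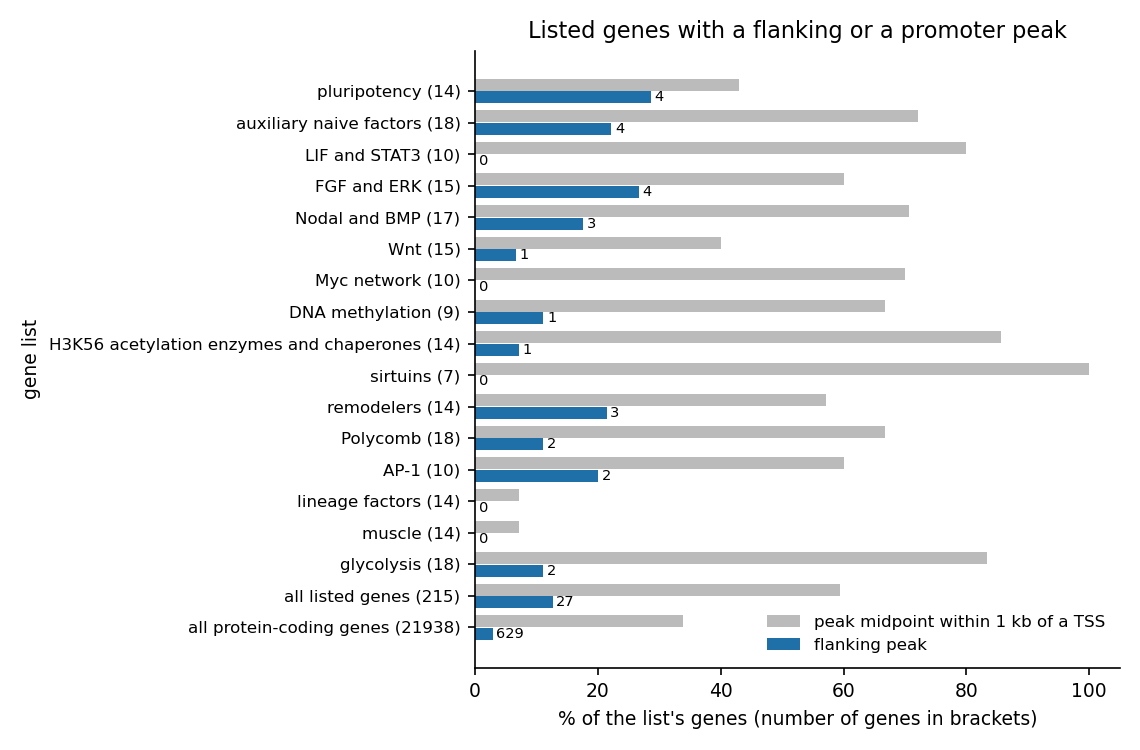
Percent of the genes in each of 16 lists, in all 215 listed genes and in all 21938 protein-coding genes that had a promoter peak (grey) or a member (blue, with the number of genes beside the bar). The member share is 12.6% over listed genes and 2.87% over all genes, and the 5 lists with no member are LIF and STAT3, the Myc network, sirtuins, lineage factors and muscle.

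Members often had other peaks in their neighbourhood. Another midpoint was within 10 kb of 54.9% of members, 25.7% of promoter peaks and 40.7% of distal peaks. The rule placed members beside a TSS, and within 1 kb of a TSS the density of peaks was 63.0 per Mb. The rule thus bears on these shares, and how much was not tested. Only 34 members (5.06%, 3.64 to 6.99) had a TSS of a second protein-coding gene within 3 kb. The X chromosome held 7 members (1.04%), against 1.85% of promoter peaks (odds ratio 0.559, 0.219 to 1.196, exact adjusted p = 0.213), and the Y chromosome held none.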

How the data were processed

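H3K56ac ChIP-seq libraries of mESCs were grouped from the sample titles into 2 Scramble and 2 Sirt6KD libraries, each group with 1 input. The authors trimmed reads with Trim Galore, aligned them to mm10 with bowtie keeping reads with 1 reportable location, and dropped duplicates (Picard). Peaks came from MACS2, and those left after the ENCODE blacklist were merged. The submitters' processing notes also name FastQC, SAMtools and deepTools. The deposited score column was 0 for every peak, and name and strand had 1 value each, so only positions were used. The file holds no depth. The study states read and peak numbers per library, which are not used here, and the libraries need not have contributed equally to the merged set.

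TSS came from 21938 protein-coding genes of GENCODE M21, and sequence and repeat masking from RefSeq's GRCm38.p6. Positions are counted from 1. Shares were compared by two-sided Fisher's exact tests in a family of 13 with Benjamini-Hochberg adjustment, at a threshold of 0.05. The members and gene lists were chosen with earlier results of these data known. Genes were named if they were listed, Utrn, nearest to a limit, or held 3 members or members on both sides of 1 TSS. Other genes were chosen after their values were seen. A listed gene with a member is not reported here. Python 3.11.15, numpy 2.4.6, pandas 2.3.3, scipy 1.17.1 and pysam 0.24.0 were used, and the code was tested on simulated data. Alternatives changed the TSS set, the distance and width limits, the use of midpoint or edge, the windows and the thresholds.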

Additional observations from a re-analysis of the deposited data

How the results depend on the processing

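No paired analysis was possible because the file holds 1 merged set of positions, and no library was left out for the same reason. Of 138 alternative values of the 13 tests, 109 kept direction and side of the threshold. The tests of CpG-rich and repeat-rich centres against promoter peaks did so under every alternative run, each of which also set the classes by distance. The causes of the changes below were not tested.

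The upstream share and the share with a promoter peak were 31.2% and 34.7% with protein_coding transcripts only, 30.4% and 31.7% with GENCODE basic transcripts, 45.4% and 57.6% by the nearest edge (425 peaks), 42.9% and 54.0% at 1.5 to 3 kb (324 peaks), and 41.7% and 51.4% at 1 to 5 kb.

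Odds ratios that lost their call follow. For a CpG-rich nearest promoter they were 0.767 with protein_coding transcripts, 0.894 with basic transcripts, 0.910 at 1.5 to 3 kb and 0.809 at 1 to 5 kb, and by the nearest edge the ratio reversed to 1.21. For non-coding starts against distal peaks it was 0.751 with basic transcripts. For CpG-rich centres against distal peaks they were 1.28 by the edge and 1.34 at 1.5 to 3 kb. For AP-1 against distal peaks they were 0.642 by the edge, 0.633 at 1.5 to 3 kb, 0.909 at 1 to 5 kb, 0.747 with no limit on width, 0.769 at 500 to 2000 bp, 0.651 in 200 bp and 0.864 in 1000 bp. For repeat-rich centres against distal peaks they were 0.769 by the edge, 0.807 at 1.5 to 3 kb and 0.842 with any masked base.

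AP-1 against promoter peaks gained a call at 1 to 5 kb (1.79), with no limit on width (1.41) and in 1000 bp (1.73). Ratios without a call that changed direction were the octamer against promoter peaks with protein_coding transcripts (1.26), basic transcripts (1.29), the edge (1.47), 1.5 to 3 kb (1.07), 1 to 5 kb (1.30) and 1000 bp (1.39), CpG-rich centres upstream against downstream at 1.5 to 3 kb (0.908), and non-coding starts upstream against downstream at 500 to 2000 bp (0.848).

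For the share of members whose TSS lay in a gap to another peak, alternatives chosen after seeing the data gave 19.3% with gaps of at most 2 kb and 27.5% with basic transcripts, and the median GC content of the gaps was 69.4% and 68.7%.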
